A study of Rattus norvegicus with 18 samples.

Results

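The genes described here are 6 members of the aryl hydrocarbon receptor pathway, Ahr, Arnt, Ahrr, Tiparp, Cyp1a1 and Cyp1b1, out of 19880 genes measured by RNA sequencing in rat heart muscle cells. They were taken by symbol, and the pathway was chosen because Cyp1a1 was higher with 1 of the viruses, sORF6. Values of the 6 genes in that comparison are therefore given as a description, without a test. All 6 passed the filter on low counts, as did 14870 genes in all.

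The cells were ventricular cardiomyocytes isolated from Sprague-Dawley rats on postnatal day 2. Freshly isolated cells were first plated for 1 h so that other cell types could attach and be removed, and a culture of this kind can still hold some of them. Phenylephrine, which makes these cells grow hypertrophic through alpha-1 adrenergic signalling, was given to every group at 20 µM for 24 h. The 6 groups of 3 libraries were cells infected with an adenovirus for sORF6 and cells with its control virus, cells infected with an adenovirus for sORF7 and cells with its control virus, and cells infected with an adenovirus for sORF8 and cells with its control virus. A sORF is a short open reading frame. The labels give neither the sequence nor the peptide of these sORFs, and no group without phenylephrine or without virus was analysed here. Whether replicate libraries were separate cultures is also not stated, so p-values reflect library-to-library spread that may be purely technical.

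The aryl hydrocarbon receptor is a transcription factor of the bHLH-PAS family. It waits in the cytosol with HSP90 and the co-chaperone p23 until it binds a ligand such as a dioxin, a polycyclic aromatic hydrocarbon or a tryptophan metabolite. It then enters the nucleus, pairs with ARNT and binds DNA at xenobiotic response elements. Cyp1a1, Cyp1b1, Ahrr and Tiparp are among its best known target genes. The products of Ahrr and Tiparp restrain the receptor, AHRR by competing for ARNT and for DNA and TIPARP by ADP-ribosylating the receptor. In the heart, Cyp1a1 is known mainly from endothelium, and Cyp1b1 from fibroblasts and vessel walls.

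Total counts ran from 15697177 to 17658137 per library. In each of the 18 libraries the 8 cardiomyocyte markers (Actc1, Myh6, Myh7, Tnnt2, Tnni3, Ryr2, Pln and Ttn) summed to at least 35737 normalised CPM (counts scaled to library size), against at most 9385 for 10 fibroblast markers. These sums depend on which genes are listed and on transcript length, so they do not give the share of each cell type. No marker of either list was at 0 throughout. A pair of control libraries stood apart from the other libraries of their groups. Control replicate 2 of the sORF6 experiment differed from the other libraries of its group by a chi-square of 11.2 and 11.4 per degree of freedom, against 3.83 between those other libraries. Control replicate 1 of the sORF7 experiment gave 6.49 and 7.27, against 4.11. Values without these libraries are given where they ended a call or moved a value markedly. In bulk RNA, fewer cells of a type and less RNA per cell cannot be told apart.

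The 6 genes spanned a wide range of expression. On the FPKM scale, which is per transcript length and allows genes to be compared, Tiparp was the most abundant, with a mean of 26.2 FPKM over 18 libraries (range 22.65 to 29.6). Arnt followed with 14.5 FPKM (13.38 to 15.61) and Cyp1b1 with 10.7 FPKM (8.63 to 12.83). Ahr averaged 2.92 FPKM (2.22 to 3.7). Ahrr and Cyp1a1 were the lowest, with 0.799 FPKM (0.49 to 1.18) and 0.675 FPKM (0.22 to 1.61), and their ranges overlapped. Each of the other neighbours in this order had ranges that did not overlap. Cyp1a1 had only 10 to 74 counts in a library and Ahrr 41 to 98, so counting error is larger for them than for the other 4 genes, whose lowest count was 201. Between the highest and lowest group means, Cyp1a1 varied 3.48-fold and Ahrr 1.99-fold, while the other 4 genes varied 1.16-fold to 1.26-fold, all on the normalised count scale.

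The upstream sequence of Ahrr and Cyp1b1 is shown because, of the windows matched, these hold the most copies of the core letters to which the receptor and ARNT bind. They were picked with the values that follow known. In those values Cyp1b1 passed a test and Ahrr passed none, and Ahr and Tiparp, called between control groups, are not shown. The windows are the 250 bases before the gene start, 5′ to 3′ on the gene's strand, from RefSeq on build GRCr8, at chr1:30821969-30822218 (+) for Ahrr and chr6:21094315-21094564 (+) for Cyp1b1. Capitals mark GCGTG or its reverse complement CACGC, the core of the xenobiotic response element. GCGTG is also one form of the core bound by hypoxia-inducible factors, so a match does not tell these factors apart.
Ahrr: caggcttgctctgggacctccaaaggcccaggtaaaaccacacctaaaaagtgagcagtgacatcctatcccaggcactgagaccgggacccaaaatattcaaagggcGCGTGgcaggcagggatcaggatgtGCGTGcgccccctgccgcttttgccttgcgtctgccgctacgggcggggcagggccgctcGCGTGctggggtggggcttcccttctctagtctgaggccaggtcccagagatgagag
Cyp1b1: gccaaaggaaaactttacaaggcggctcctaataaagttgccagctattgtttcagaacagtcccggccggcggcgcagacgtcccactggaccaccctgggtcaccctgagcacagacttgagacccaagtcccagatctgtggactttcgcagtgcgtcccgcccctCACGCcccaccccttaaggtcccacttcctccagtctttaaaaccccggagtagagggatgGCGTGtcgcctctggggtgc
Ahrr had 3 matches, starting 142, 117 and 57 bases before the gene start, and Cyp1b1 had 2, starting 81 and 20 bases before it. Of 33469 promoter windows of the same length, 25.9% held at least 1 match, 8.12% at least 2 and 2.58% at least 3. Promoter sequences were matched for 5 of the 6 genes. Arnt and Tiparp had 1 match each and Ahr had 0, and Cyp1a1 was not among those matched. A match describes the letters in the window and was not tested as a binding site.

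**Figure D1:**
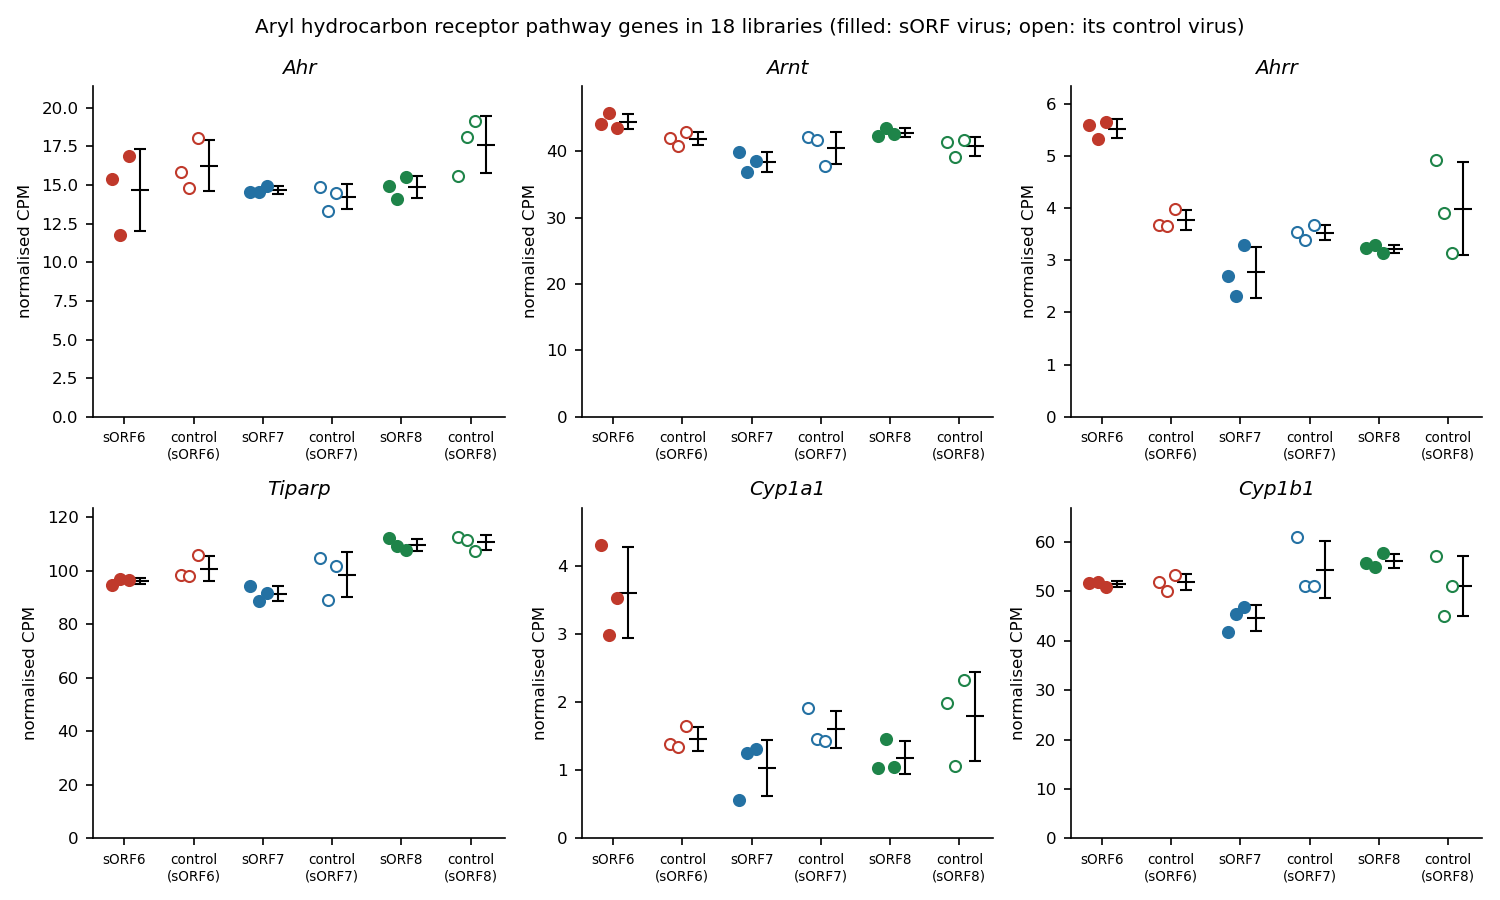
Normalised CPM (vertical axes from 0) of the 6 genes in each of 18 libraries. Filled points are sORF libraries, open points libraries of the matching control virus, and bars the mean ± SD of 3 libraries. The 3 sORF6 libraries lay between 2.98 and 4.30 for Cyp1a1 and above every other library, and for Cyp1b1 the 3 sORF7 libraries lay below every other library except 1 sORF8 control.

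With sORF6, Cyp1a1 and Ahrr were higher than with the control virus, while Ahr, Arnt, Tiparp and Cyp1b1 differed by at most 0.14 on the log2 scale in either direction. The groups did not overlap for 4 of 6 genes, with Cyp1a1, Ahrr and Arnt higher and Tiparp lower with sORF6, and over all genes tested 20.6% did not overlap in this comparison. With edgeR's quasi-likelihood test, 3.85% of all genes were called at an adjusted p under 0.05, and the 6 genes were not tested because this comparison chose them. With sORF7, 1 of 6 genes passed the test, Cyp1b1, which fell, against 7.77% of all genes called in either direction. The groups did not overlap for 3 of 6 genes in the sORF7 comparison, Cyp1a1, Cyp1b1 and Ahrr, all lower with sORF7, against 23.1% of all genes. With sORF8, 0 of 6 genes passed the edgeR test, against 3.75% of all genes. DESeq2 and limma also called 0 there, and 1 gene, Ahr, had an unadjusted edgeR p under 0.05. The sORF8 groups did not overlap for 2 of 6 genes, Ahr lower and Arnt higher, against 24.5% of all genes. The median log2 fold change of the 6 genes was 0.04 with sORF6, -0.20 with sORF7 and -0.13 with sORF8, beside medians of 0.00 over all genes tested in each comparison.

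**Figure D2:**
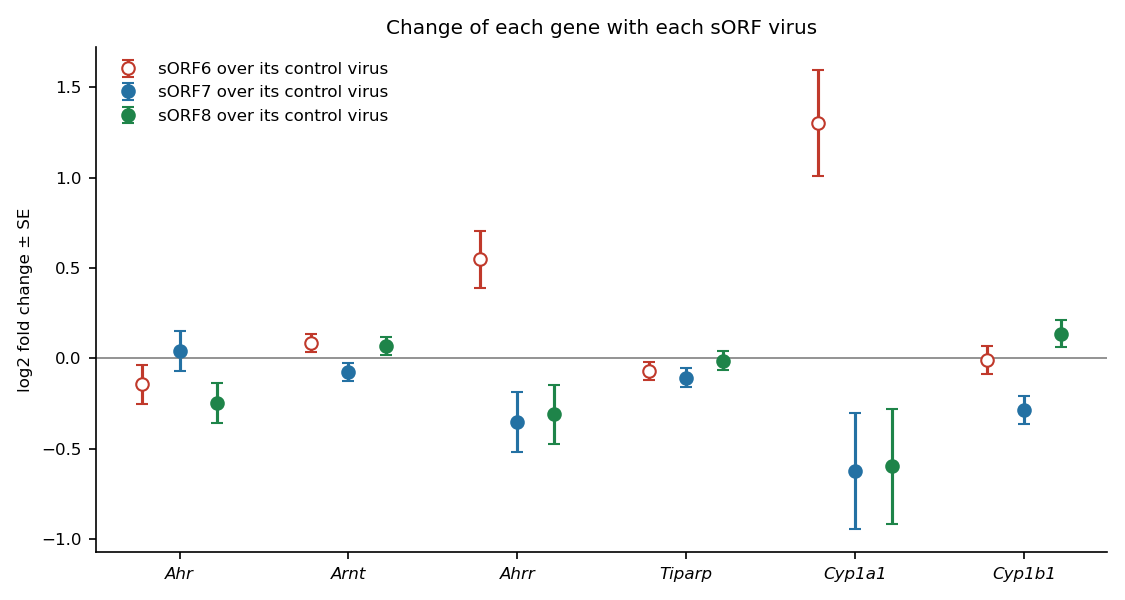
Log2 fold change ± SE (vertical axis) of each gene over the matching control virus, from the edgeR fit to 18 libraries. Open points mark sORF6, where the genes were not tested. Cyp1a1 and Ahrr had their highest values with sORF6, at 1.30 and 0.55, and lay below 0 with sORF7 and sORF8.

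Ahr encodes the receptor itself (gene 25690, chr6:54963990-55001806, plus strand, build Rnor_6.0). It had 15.4, 11.7 and 16.9 normalised CPM in sORF6 libraries and 15.8, 14.8 and 18.1 in their controls, and these groups overlapped. Its log2 fold change with sORF6 was -0.14 ± 0.11 (SE), and -0.0068 without sORF6 replicate 2, the lowest library. With sORF7 it had 14.5, 14.5 and 15.0 normalised CPM, against 14.9, 13.3 and 14.5 in the controls, a log2 fold change of 0.04 (95% interval -0.19 to 0.28, edgeR adjusted p = 0.888), or 0.08 without sORF7 control replicate 1. With sORF8 it had 14.9, 14.1 and 15.5 normalised CPM, against 15.6, 18.1 and 19.1 in the controls. All 3 sORF8 libraries lay below their controls, by a log2 fold change of -0.24 (95% interval -0.48 to -0.01), with an unadjusted p of 0.0405 and an adjusted p of 0.272 by edgeR. The authors' deposited table lists a q-value of 0.00336 for Ahr with sORF8. How the deposited q-values handle the spread between replicate libraries is not stated, so they may not be comparable with the edgeR values. The difference between the sORF8 and sORF7 responses of Ahr was -0.29 (95% interval -0.62 to 0.04, adjusted p = 0.305).

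Arnt encodes the partner that the receptor needs to bind DNA (gene 25242, chr2:196594178-196653471, plus strand). It was among the steadiest of the 6 genes. It averaged 44.4 ± 1.14 normalised CPM with sORF6 and 41.9 ± 1.03 in the controls (SD, n = 3 each), with no overlap and a log2 fold change of 0.08 ± 0.05 (SE). With sORF7 it averaged 38.4 ± 1.48 normalised CPM, against 40.5 ± 2.38 in the controls, a log2 fold change of -0.08 (95% interval -0.18 to 0.03, edgeR adjusted p = 0.438), or -0.04 without sORF7 control replicate 1. With sORF8 it averaged 42.8 ± 0.661 normalised CPM, against 40.7 ± 1.43, a log2 fold change of 0.07 (95% interval -0.04 to 0.18, adjusted p = 0.529). The intervals keep any change of Arnt with sORF7 or sORF8 within 0.18 on the log2 scale. Its counts were fractional in all 18 libraries, so part of its reads were shared, and with what was not examined. Counts of the other 5 genes were whole in every library, among them Ahr and Cyp1b1 with 8 and 5 transcripts.

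Ahrr, the receptor's repressor (gene 498999, chr1:31603297-31698329, plus strand), had 96, 91 and 98 counts in sORF6 libraries and 64, 63 and 70 in their controls. In normalised CPM these were 5.58, 5.31 and 5.66 with sORF6 and 3.68, 3.65 and 3.99 in the controls. The sORF6 values lay above all 15 other libraries, and the log2 fold change was 0.55 ± 0.16 (SE), or 0.52 without both libraries that stood apart. With sORF7 it had 48, 41 and 58 counts, against 61, 58 and 64 in the controls, and in normalised CPM 2.69, 2.32 and 3.29, against 3.54, 3.38 and 3.67. All 3 sORF7 libraries lay below their controls, with a log2 fold change of -0.35 (95% interval -0.70 to -0.0035), an unadjusted p of 0.048 and an adjusted p of 0.244 by edgeR. Without sORF7 control replicate 1 it was -0.34 (adjusted p = 0.373). With sORF8 it had 53, 54 and 51 counts, against 79, 63 and 50 in the controls, and the groups overlapped. The log2 fold change with sORF8 was -0.31 (95% interval -0.65 to 0.03, adjusted p = 0.361), and it differed from the sORF7 response by 0.04 (95% interval -0.45 to 0.53, adjusted p = 0.948). Ahrr overlaps Exoc3 on the same strand and LOC102548594 on the other. The sources used here do not say if strand entered the counting. Exoc3 had log2 fold changes of 0.01 with sORF6, 0.02 with sORF7 and -0.02 with sORF8.

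Tiparp, whose product ADP-ribosylates the receptor (gene 310467, chr2:157316293-157343865, plus strand), did not follow Ahrr with sORF6. It had 94.8, 97.0 and 96.4 normalised CPM with sORF6, against 98.3, 98.2 and 106 in the controls, a log2 fold change of -0.07 ± 0.05 (SE). The sORF6 libraries all lay below their controls. With sORF7 it had 94.3, 88.6 and 91.6 normalised CPM, against 105, 89.1 and 102, and the groups overlapped. The log2 fold change with sORF7 was -0.11 (95% interval -0.21 to 0.0017, edgeR adjusted p = 0.259). Without sORF7 control replicate 1, the highest of the controls and a library that stood apart, it was -0.05 (adjusted p = 0.680). Without sORF7 control replicate 2, the lowest, it was -0.17 (adjusted p = 0.0294). The authors' deposited table lists a q-value of 0.0172. With sORF8 it averaged 109.7 ± 2.22 normalised CPM, against 110.6 ± 2.69 in the controls (SD, n = 3 each), a log2 fold change of -0.01 (95% interval -0.12 to 0.10, adjusted p = 0.944).

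Cyp1a1, the cytochrome P450 that oxidises polycyclic aromatic hydrocarbons and is the most used readout of receptor activity (gene 24296, chr8:62472087-62478122, plus strand), had 74, 51 and 61 counts in sORF6 libraries and 24, 23 and 29 in their controls. In normalised CPM these were 4.30, 2.98 and 3.52 with sORF6 and 1.38, 1.33 and 1.65 in the controls. Every sORF6 library lay above all other libraries, and the means were 3.60 ± 0.667 and 1.46 ± 0.172 (SD, n = 3 each). The fold was 2.47, a log2 fold change of 1.30 ± 0.29 (SE), and 1.24 without both libraries that stood apart. With limma on log2(FPKM + 1), a scale that understates changes of low genes, it was 0.59, and the sORF6 value of Ahrr was 0.26. Summed over a group, Cyp1a1 had 186 counts with sORF6 and 76 in the controls, sums that leave out the spread between libraries. Beside this, the summed markers of some other cell types also differed between the sORF6 groups without overlap. The sums of the 4 epicardial markers overlapped, at 8.37 to 9.46 normalised CPM with sORF6 and 7.24 to 8.86 in the controls. Fibroblast markers summed to 8864 to 9385 normalised CPM with sORF6 and 7874 to 8687 in the controls, and 10 endothelial markers to 367 to 380 and 339.5 to 362. Col1a1, the largest part of the fibroblast sum at 5674 to 5939 with sORF6, did not pass (0.14 on the log2 scale, edgeR adjusted p = 0.0872). Eng alone made up 309.5 to 323 normalised CPM of the endothelial sum with sORF6 and 285 to 304 in the controls. Of the other 8 tested, 4 had values above 0 and 4 below, from 0.35 for Esam to -0.88 for Cdh5 on the log2 scale. The sum of 9 leukocyte markers was lower, at 119 to 133 with sORF6 and 140.4 to 160.3 in the controls. So was that of 7 smooth muscle and pericyte markers, at 2867 to 2989 and 3047 to 3104. Single markers went both ways, with log2 fold changes from 1.64 for C1qa to -0.83 for Itgam among leukocyte markers (median -0.21). Those of smooth muscle and pericyte ran from 0.53 for Rgs5 to -0.15 for Acta2 (median 0.05). By edgeR 2 of 10 fibroblast markers rose and 1 fell, and 2 of 8 tested leukocyte markers and 1 of 7 smooth muscle markers fell. The smallest adjusted p of the 9 tested endothelial markers was 0.101, for Eng. Their part in the Cyp1a1 and Ahrr values was not tested.

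With sORF7, Cyp1a1 lay below the control range in all 3 libraries, at 10, 22 and 23 counts, against 33, 25 and 25. In normalised CPM these were 0.561, 1.25 and 1.30 with sORF7 and 1.91, 1.46 and 1.43 in the controls. The log2 fold change was -0.63 (95% interval -1.30 to 0.05, edgeR adjusted p = 0.295), -0.47 (adjusted p = 0.543) without both libraries that stood apart and -0.20 (adjusted p = 0.334) with limma on log2(FPKM + 1). With sORF8 Cyp1a1 had 17, 24 and 17 counts, against 32, 17 and 37, and the groups overlapped. Its log2 fold change was -0.60 (95% interval -1.26 to 0.07, adjusted p = 0.367). At these counts neither the sORF7 nor the sORF8 value could be told apart from 0. The sORF8 and sORF7 responses differed by 0.03 (95% interval -0.91 to 0.97, adjusted p = 0.982), an interval too wide to show that they were alike, and by -0.13 without sORF7 control replicate 1.

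Cyp1b1 encodes a P450 that metabolises oestrogens and aromatic hydrocarbons (gene 25426, chr6:2291362-2317294, minus strand). With sORF6 it had 51.7, 52.0 and 50.9 normalised CPM, against 52.0, 50.2 and 53.4 in the controls, and the groups overlapped with a log2 fold change of -0.01 ± 0.08 (SE). With sORF7 it had 41.8, 45.3 and 46.8 normalised CPM, against 61.1, 51.1 and 51.0 in the controls, and the groups did not overlap. It fell by 0.28 ± 0.08 on the log2 scale (SE), a fold of 0.821 (95% interval 0.735 to 0.917), with an adjusted p of 0.0262 by edgeR. DESeq2 also called it, while limma on log2(FPKM + 1) (adjusted p = 0.108) and edgeR on only the compared libraries (adjusted p = 0.0659) did not. The authors' deposited table lists a q-value of 1.22e-09, which may not be comparable with the edgeR value. The call rests partly on sORF7 control replicate 1, 1 of the libraries that stood apart, which had the highest Cyp1b1 of all 18. Without it the log2 fold change was -0.19 and the adjusted p 0.176. The call was also lost without sORF7 replicate 1 (adjusted p = 0.128) or sORF7 replicate 2 (adjusted p = 0.0614).

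The summed fibroblast markers were also lower with sORF7. They came to 7635 to 7982 normalised CPM with sORF7 and 8021 to 8934 in the controls, and by edgeR 3 of 10 fell and 0 rose. Thy1, Dcn and Col1a2 had log2 fold changes above 0, at 0.19, 0.06 and 0.02, and did not pass. Col1a1, the largest part of the sum at 5005 to 5218 with sORF7, did not pass either (-0.11, edgeR adjusted p = 0.130). Pdgfra, a fibroblast receptor, fell by 0.30 (adjusted p = 0.0189). The collagen gene Col3a1 fell by 0.21 (adjusted p = 0.00578), and the matrix gene Postn fell by 0.16 (adjusted p = 0.0128), all on the log2 scale by edgeR. The sum of cardiomyocyte markers was also lower, at 47494 to 49136 normalised CPM with sORF7 and 53352 to 56393 in the controls. Of the 8, 1 passed the test, Myh7, which fell, while Myh6 lay above 0 without passing (0.20, edgeR adjusted p = 0.0972). The 4 epicardial markers summed to 4.41 to 6.95 and 7.75 to 8.48 in the same groups. The part of these markers in the Cyp1b1 result was not tested. Cyp1b1 overlaps Rmdn2, which lies on the opposite strand and had a log2 fold change of -0.19 with sORF7 (adjusted p = 0.408).

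With sORF8 Cyp1b1 had 55.8, 55.0 and 57.8 normalised CPM, against 57.1, 45.1 and 51.1 in the controls, and the groups overlapped. Its log2 fold change was 0.14 (95% interval -0.02 to 0.30, edgeR adjusted p = 0.390), and the authors' deposited table lists a q-value of 0.0107. The test of the difference itself found that the sORF8 and sORF7 responses of Cyp1b1 differed by 0.42 ± 0.11 on the log2 scale (95% interval 0.20 to 0.65, adjusted p = 0.0203). It was the only 1 of the 6 genes to pass this test, against 7.72% of all genes. Without sORF7 control replicate 1 the difference was 0.32 with an adjusted p of 0.0616. It also missed the threshold without sORF7 replicate 1 (adjusted p = 0.0633) and without sORF8 control replicate 2 (adjusted p = 0.0563).

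The control groups of the sORF8 and sORF7 experiments were compared to show how far the level of these genes varied without any sORF. Ahr and Tiparp were higher in sORF8 controls. Ahr averaged 17.6 ± 1.84 normalised CPM in sORF8 controls and 14.3 ± 0.807 in sORF7 controls (SD, n = 3 each), a log2 difference of 0.30 ± 0.11 (SE, edgeR adjusted p = 0.0371). Tiparp averaged 110.6 ± 2.69 and 98.5 ± 8.35, a log2 difference of 0.17 ± 0.05 (SE, adjusted p = 0.0150). These 2 of 6 genes stand against 37.7% of all genes called between the same control groups. Their values did not overlap between the control groups, as for 46.5% of all genes. Leaving out sORF7 control replicate 2 ended both calls, with adjusted p of 0.127 for Ahr and 0.104 for Tiparp. Each call was also lost on leaving out some other libraries, Ahr without sORF7 control replicate 3 or sORF8 control replicate 2 or 3 and Tiparp without sORF8 control replicate 1. Cardiomyocyte markers summed to 35737 to 36085 normalised CPM in sORF8 controls and 53352 to 56393 in sORF7 controls. The virus, the experiment and the cells of these controls cannot be told apart.

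Across all 18 libraries, Cyp1a1 and Ahrr varied together, with a Pearson correlation of 0.785 on log2 normalised CPM. In the 15 libraries without sORF6 it was 0.470. Cyp1a1 and Tiparp, both target genes, gave -0.08 over the 18 libraries and 0.256 over the 15. Cyp1a1 and Cyp1b1 gave 0.361 over the 18 and 0.576 over the 15, so without sORF6 the value for Ahrr was not the highest. Ahrr and Tiparp gave 0.119 over the 18 and 0.547 over the 15. Arnt, the receptor's partner, gave 0.569 with Cyp1a1, 0.613 with Ahrr and 0.566 with Cyp1b1 over the 18. Over the 15 these values of Arnt were 0.272, 0.348 and 0.691. Libraries of a group share their virus and experiment, so these values describe the groups as much as the genes.

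**Figure D3:**
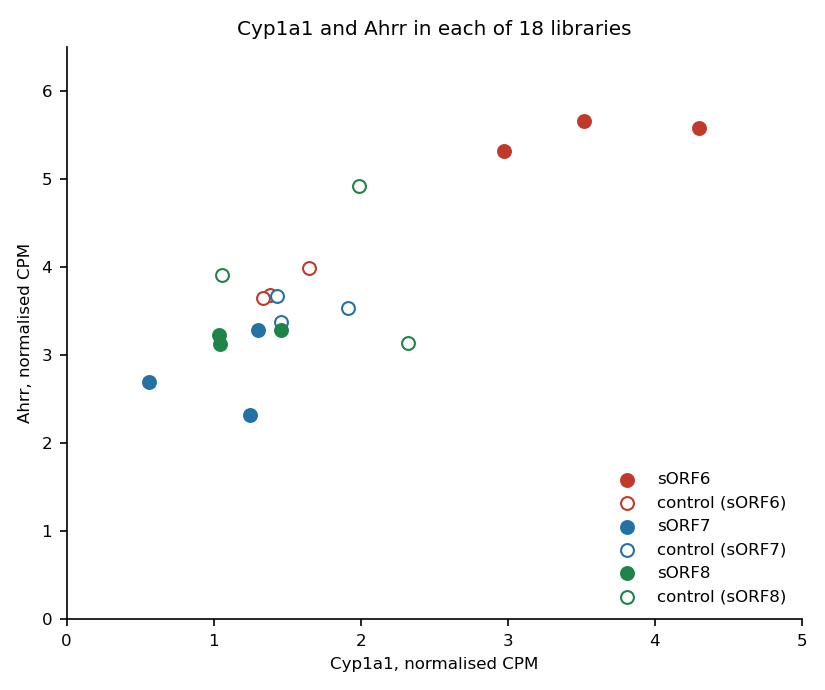
Normalised CPM of Cyp1a1 (horizontal axis) and Ahrr (vertical axis) in each of 18 libraries, coloured by experiment, filled for sORF and open for its control virus. The 3 sORF6 libraries lie apart at the upper right, with Cyp1a1 from 2.98 to 4.30 and Ahrr from 5.31 to 5.66.

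The genes most like Cyp1a1 over the 18 libraries, by Pearson correlation of log2 normalised CPM among named genes averaging at least 1 log2 CPM, were Fam107b (0.876), Mest (0.846), Chrd (0.844), Acer2 (0.834) and Selenop (0.829). Selenop encodes a secreted selenium carrier and averaged 74.9 normalised CPM with sORF6 and 49.7 in its controls, 32.8 with sORF7 and 45.2 in its controls, and 40.1 with sORF8 and 40.9 in its controls. Mest, an imprinted gene, averaged 57.6 and 44.9, 35.2 and 42.5, and 36.5 and 42.6 in the same groups. Fam107b and Chrd were also among the first 5 by Spearman correlation. The genes most like Cyp1b1 were Eif2ak3 (0.804), which encodes the endoplasmic reticulum stress kinase PERK, Cox16 (0.787) and Gxylt2 (0.775). These correlations describe 18 libraries that share groups and experiments. Those with Cyp1a1 include the sORF6 libraries, which had its highest values and led to the choice of the pathway. The ranking was not repeated without the sORF6 libraries, so how far it rests on them was not tested.

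The wider pathway was followed in 41 further genes in 5 lists, of which 31 were tested. The 10 that did not pass the filter on low counts included Cyp1a2, the sister gene of Cyp1a1, which had 0 to 3 counts in a library, and Ido1, a tryptophan-degrading enzyme that makes a receptor ligand precursor, which was at 0 in every library except 2 of sORF7, at 4 and 1. Of the 31 tested, 2 rose and 1 fell with sORF7, and 0 rose and 4 fell with sORF8, where 7.77% and 3.75% of all genes were called in either direction. The list median was 0.00 with sORF7 and 0.02 with sORF8, beside 0.00 over all genes in each.

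The chaperones that hold the receptor in the cytosol fell with sORF8. Hsp90ab1, the constitutive cytosolic HSP90, averaged 2033 ± 61.3 normalised CPM with sORF8 and 2376 ± 19.3 in its controls (SD, n = 3 each), a fall of the log2 value by 0.22 (edgeR adjusted p = 5.53e-05). Hsp90aa1, the inducible form, had a log2 fold change of -0.23 (adjusted p = 0.00114), and Ptges3, which encodes p23, one of -0.21 (adjusted p = 0.0128). The other 7 genes of the list of 10 did not pass, among them Arnt2, a relative of Arnt, at 0.01 (adjusted p = 0.985). The cardiomyocyte markers differed between the same groups without overlap, summing to 42820 to 44800 normalised CPM with sORF8 and 35737 to 36085 in its controls. Of the 8, 3 rose and 0 fell, Myh6, a myosin heavy chain gene, by 0.80 (adjusted p = 2.19e-06), Myh7 by 0.34 and Actc1 by 0.19 on the log2 scale. The 7 smooth muscle and pericyte markers summed to 2665 to 2817 and 2522 to 2594 in the same groups, and 1 of them rose. The part of these markers in the chaperone and Nqo1 values was not tested. Leaving out any library of the comparison except replicate 1 of either sORF8 group ended the Ptges3 call. With sORF7 Hsp90aa1 had a log2 fold change of 0.14 (adjusted p = 0.0240), the only 1 of these 10 to pass, and the call was lost without sORF7 replicate 3 or sORF7 control replicate 2. The response differed between sORF8 and sORF7 by -0.37 for Hsp90aa1 (adjusted p = 0.00019), by -0.23 for Hsp90ab1 (adjusted p = 0.000827) and by -0.23 for Ptges3 (adjusted p = 0.0298). The Ptges3 difference missed the threshold on leaving out some single libraries, with adjusted p up to 0.0843. The same 3 genes were higher in sORF8 controls than in sORF7 controls, by 0.62, 0.56 and 0.31 on the log2 scale (edgeR adjusted p at most 2.13e-05). Arnt2 went the other way between these controls, by -0.70 (adjusted p = 0.000125). These 4 of 10 genes stand against 37.7% of all genes called between the same controls. Of the 31 tested pathway genes, 5 were higher and 7 lower there.

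Among 8 tested genes of the list of other receptor targets, Nqo1, a quinone reductase, averaged 25.2 ± 0.930 normalised CPM with sORF8 and 31.7 ± 1.79 in its controls. It fell by 0.33 on the log2 scale (edgeR adjusted p = 0.00537). The sORF8 controls were themselves higher in Nqo1 than the sORF7 controls, by 0.47 (adjusted p = 9.55e-06), where 37.7% of all genes were called. The sORF8 libraries, at 24.1 to 25.9 normalised CPM, lay above the sORF7 controls, at 22.5 to 23.1. With sORF7 Nqo1 did not pass (-0.05, adjusted p = 0.717), and the difference between those responses did not pass either (-0.28, adjusted p = 0.0752). Nfe2l2, which encodes the antioxidant regulator NRF2, rose with sORF7 by 0.16 (adjusted p = 0.0162), and its call was lost without sORF7 replicate 1 or 2 or sORF7 control replicate 2. Slc7a5, an amino acid transporter, differed between the sORF8 and sORF7 responses by -0.20 (adjusted p = 0.0211, up to 0.0711 with 1 library left out). With sORF6, where the pathway genes are not tested, Nqo1 had a log2 fold change of 0.10 and Serpinb2, a serpin, one of -1.15.

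Of the 3 tested ligand-making enzymes and the 6 tested bHLH-PAS relatives, Hif1a and Epas1 among them, 0 passed the edgeR test with sORF7 or sORF8. DESeq2 and limma also called 0 of them, and 0 had an unadjusted p under 0.05 with any of these tools. Of the 4 genes that donate electrons to P450 enzymes, Cyb5r3, a cytochrome b5 reductase, averaged 240.6 ± 1.98 normalised CPM with sORF7 and 275 ± 10.4 in its controls, and fell by 0.19 on the log2 scale (adjusted p = 0.00387). Cyb5r3 and Cyb5b, a cytochrome b5, differed between the sORF8 and sORF7 responses by 0.27 (adjusted p = 0.00419) and 0.24 (adjusted p = 0.0301), and with 1 library left out the adjusted p of Cyb5b reached 0.0840. Por, the main P450 reductase, did not pass in either comparison.

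**Figure D4:**
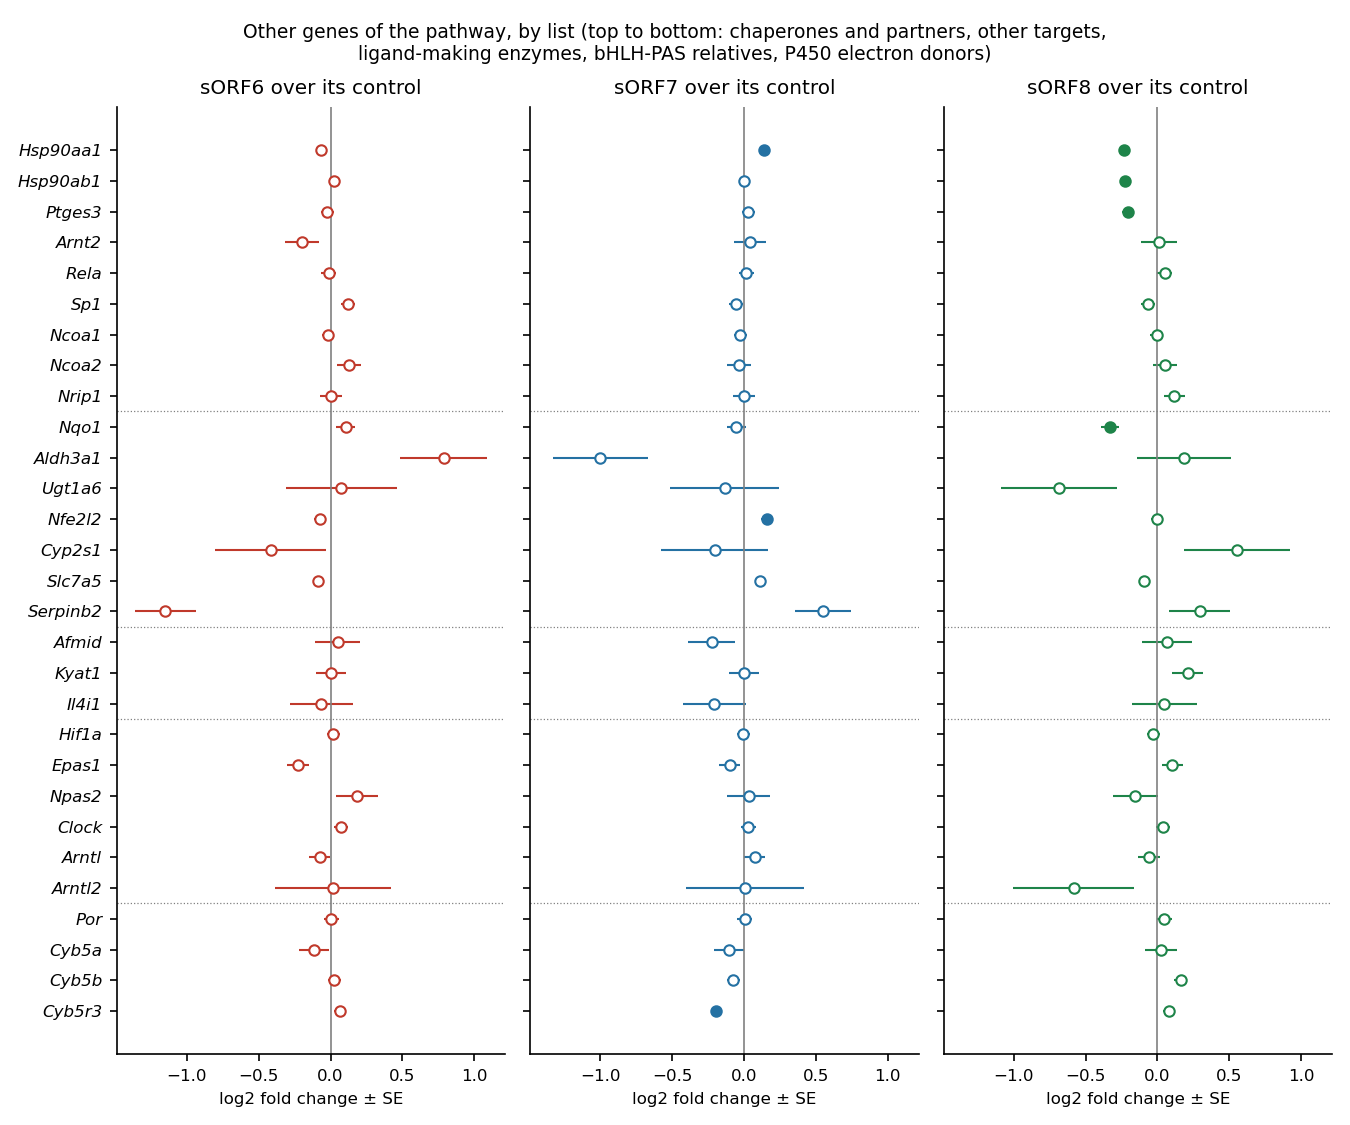
Log2 fold change ± SE (horizontal axes) of tested pathway genes over the matching control virus, grouped by list. Filled points passed the edgeR test at an adjusted p under 0.05, sORF6 points are open because none was tested here, and Gsta1, at 0 in 9 of 18 libraries, is not drawn. Hsp90aa1, Hsp90ab1, Ptges3 and Nqo1 lie below 0 and filled with sORF8.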

How the data were processed

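RNA sequencing of 18 libraries in 6 groups of 3 was analysed, and groups were taken from the sample titles. The authors deposited 1 table with estimated counts, FPKM, and, per comparison, log2 fold changes and q-values in columns headed degseq. For the 6 genes with sORF7 or sORF8, deposited q-values under 0.05 are quoted above. The others ran from 0.0523 for Cyp1a1 to 0.613 for Tiparp, both with sORF8. HISAT2 2.0.4, RSEM 1.2.12 and DESeq2 1.4.5 on build Rnor_6.0 are named without roles, per the submitters' processing notes. All per-sample columns matched a sample (0 unmapped).

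The deposited estimated counts were rounded. Genes were filtered with filterByExpr, scaled by TMM and tested with edgeR 4.0.16 (R 4.3.3) in 1 model of 6 group means (residual degrees of freedom 12, common coefficient of variation 6.9%). P-values were adjusted by Benjamini-Hochberg over 14870 genes and called at 0.05. CPM values were normalised by the same TMM factors. The scripts were tested on simulated data. Alternatives used DESeq2 1.42.0, limma 3.58.1 on log2(FPKM + 1), other scaling and filters, a replicate block and left-out libraries.

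The genes and lists were chosen with earlier results of these data known. Named from the lists were up to 3 genes per list and comparison with the smallest p among those called, with Cyp1a2, Nqo1, Arnt2 and Ido1 in any case, and the 5 and 3 genes most like Cyp1a1 and Cyp1b1. Gsta1 and Aldh3a1, the highest of their list with sORF6, and Serpinb2, the lowest, are also named. For the control groups, only the chaperone list and Nqo1 are named. Of the genes that this rule names, 1 is not reported here. Intervals cover 95%.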

Additional observations from a re-analysis of the deposited data

Results flagged for a closer look

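Cyp1a1 had a log2 fold change of 1.30 with sORF6 and -0.63 with sORF7. Every sORF6 library lay above its controls and every sORF7 library below its controls, and the difference between these responses was not tested, because the sORF6 comparison chose the gene.

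Ahrr had a log2 fold change of 0.55 with sORF6 and -0.35 with sORF7, again with every sORF6 library above and every sORF7 library below its controls. This difference was not tested for the same reason.

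Cyp1b1 responded differently to sORF8 and to sORF7. The responses differed by 0.42 on the log2 scale (edgeR adjusted p = 0.0203), and by 0.32 (adjusted p = 0.0616) without sORF7 control replicate 1. Cyp1b1 was lower than every control in 3 of 3 libraries with sORF7, and with sORF8 the groups overlapped.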

How the results depend on the processing

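Most values kept their direction and their side of the threshold. The numbers of genes called over the whole table moved when only the libraries compared were fitted, to 335 for sORF6, 689 for sORF7 and 865 for sORF8, against 572, 1156 and 558 with all 18 libraries. Leaving out both control libraries that stood apart, chosen after seeing the data, gave 988 for sORF8. Leaving out 1 library in turn gave 368 to 527 genes for sORF6, 681 to 954 for sORF7, 264 to 382 for sORF8, 787 to 1104 for the difference between the sORF8 and sORF7 responses and 4911 to 5438 between the control groups. For these counts the cause was not tested.

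The Cyp1b1 call with sORF7 was lost with limma on log2(FPKM + 1) (-0.22, adjusted p = 0.108), with only the libraries compared (-0.28, adjusted p = 0.0659) and with both apart libraries left out (-0.19, adjusted p = 0.156). Its difference between responses was lost with limma (0.35, adjusted p = 0.0670) and without both apart libraries (0.32, adjusted p = 0.0511). With only the libraries compared, Tiparp between controls (0.17, adjusted p = 0.0620) and, with sORF7, Hsp90aa1 (adjusted p = 0.101) and Nfe2l2 (adjusted p = 0.110) missed. The Cyb5b difference missed with limma (adjusted p = 0.0590), without both apart libraries (adjusted p = 0.0578) and with a replicate block (adjusted p = 0.0730).

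No value that passed the test changed sign. With limma the sORF8 minus sORF7 difference turned to -0.0082 for Cyp1a1 and -0.0016 for Ahrr, and Arnt between the controls to -0.0054. Without both apart libraries the difference of Cyp1a1 turned to -0.13, and Cyp1b1 between the controls to 0.016. Leaving out 1 library in turn, these values crossed 0: Cyp1b1 with sORF6 (-0.032 to 0.0125), the difference of Cyp1a1 (-0.27 to 0.26) and of Ahrr (-0.10 to 0.22), Ahr with sORF7 (-0.0031 to 0.083), Tiparp with sORF8 (-0.032 to 0.00017), and, between the controls, Arnt (-0.040 to 0.051), Ahrr (-0.0021 to 0.32), Cyp1a1 (-0.072 to 0.43) and Cyp1b1 (-0.18 to 0.016).

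Replicate numbers were shared between groups, but same-numbered libraries deviated together by correlations of only -0.02 to 0.18, so the numbers were not taken as pairs. In 6 of 9 cases a library correlated best with its own number. With a replicate block the counts were 522 for sORF6, 1022 for sORF7, 459 for sORF8, 1062 for the difference and 5560 between controls, and Cyp1b1 with sORF7 was -0.28 with an adjusted p of 0.0558. Of the 5 genes most like Cyp1a1, 2 were also among the first 5 by Spearman correlation. Cyp1a1, with 10 to 74 counts per library, had intervals over 1 log2 unit wide. Its log2 fold changes of -0.63 with sORF7 and -0.60 with sORF8 could therefore not be told apart from 0.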
